A study of Mus musculus with 10 samples.

Results

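The NRF2 antioxidant response was followed in mouse liver through 10 genes: the transcription factor gene Nfe2l2, which encodes NRF2, its inhibitor Keap1, and 8 genes of the antioxidant programme that NRF2 is known to drive, Nqo1, Gclc, Gclm, Hmox1, Txnrd1, Srxn1, Slc7a11 and Gsr. They were taken by symbol from a table of 56748 genes. Each symbol had 1 row, and 9 of the 10 were among the 12439 genes tested. RNA sequencing covered 3 groups: 3 liver tumours induced by Akt plus Nras, 3 in which Foxo1AAA was added to that pair, and 4 normal livers of wild-type FVB mice. These are called Akt/Nras tumours, Akt/Nras/Foxo1AAA tumours and normal livers. The series asks which substrates of the kinase AKT, among them GSK3 and TSC2, carry its activity in hepatocellular carcinoma; Foxo1AAA is a form of the transcription factor FOXO1 in which AKT sites are changed to alanine. All tumours arose in wild-type mice after hydrodynamic tail vein injection, a fast injection of a large volume that delivers DNA to hepatocytes. One label field writes the third construct as FoxoAAA, and the labels give neither the species nor the promoter of the injected genes. No age or sex is given, and the replicates are not said to come from separate mice, so a p-value reflects only how these samples vary, which may be technical.

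NRF2 is held at a low level in unstressed cells by KEAP1, which hands it to a CUL3 ubiquitin ligase for degradation. Electrophiles and oxidants modify KEAP1, and NRF2 then accumulates, pairs with a small MAF protein and binds antioxidant response elements near genes of glutathione synthesis, thioredoxin reduction, quinone reduction and heme breakdown. Because that control acts largely on the protein, mRNA of Nfe2l2 and Keap1 is not a measure of NRF2 activity, and the liver, which handles many reactive compounds, is a tissue in which the target genes are well studied.

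In both kinds of tumour most of these mRNAs were higher than in normal liver. Slc7a11, which had no read in any normal liver, was at least 24.2-fold higher in Akt/Nras tumours and was too low to be tested. Of the 9 tested genes Srxn1, Nqo1 and Nfe2l2 had the largest increases, between 2.20-fold and 3.50-fold, whereas Gclc, Hmox1 and Txnrd1 differed by 1.27-fold to 1.65-fold. Gclm was lower on the deposited scale but not with all libraries set to the same total. Its lower call in Akt/Nras tumours was kept with libraries scaled by their median gene ratio (median-of-ratios scaling). Keap1 was not called in any comparison on the deposited scale. Between the tumour groups 1 of the 9 tested members was called, beside 7.93% of all tested genes called higher and 4.13% called lower. It was Gclm, which was 1.45-fold higher in Akt/Nras/Foxo1AAA tumours than in Akt/Nras tumours. That call was lost with equal totals and with only the 2 tumour groups in the fit.

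Values are FPKM (fragments per kilobase of gene, scaled by library), as deposited. The libraries held 16.2 to 21.3 M reads in Akt/Nras tumours, 15.4 to 20.7 M in Akt/Nras/Foxo1AAA tumours and 13.6 to 17.5 M in normal livers, recovered from the deposited values. The FPKM of a library did not sum to 1 fixed total: sums were 349619 to 381653 in Akt/Nras tumours, 413812 to 444893 in Akt/Nras/Foxo1AAA tumours and 692010 to 743203 in normal livers. With every library set to the same FPKM total (equal totals), the median log2 change of all tested genes moved to 0.70 for Akt/Nras tumours, and 0.46 for Akt/Nras/Foxo1AAA tumours, in each case against normal liver, and to -0.21 between the tumour groups, against -0.07, -0.09 and -0.01 on the deposited scale. The tissue labels were checked against cell type markers. All 10 hepatocyte markers were present and were called lower in both kinds of tumour than in normal liver. With equal totals 7 were lower and 0 higher in Akt/Nras tumours, and 7 lower and 2 higher in Akt/Nras/Foxo1AAA tumours. Their summed level was 24792 to 27208 FPKM in Akt/Nras tumours, 29480.5 to 41547 FPKM in Akt/Nras/Foxo1AAA tumours and 69598 to 73662 FPKM in normal livers. Of the 11 tested of 12 macrophage and Kupffer cell markers, 7 rose and 2, Clec4f and Timd4, were called lower in Akt/Nras tumours (7 and 0 with equal totals), and 7 rose and 0 fell in Akt/Nras/Foxo1AAA tumours (7 and 0). They summed to 352 to 554, 431 to 493 and, in normal livers, 182 to 296 FPKM. All 6 tested of 7 cholangiocyte and progenitor markers rose in Akt/Nras tumours and 5 in Akt/Nras/Foxo1AAA tumours, with sums of 4136 to 5826 and 2676 to 5405 FPKM against 24.4 to 31.4 FPKM in normal livers. Most of these sums was Spp1 alone, with means of 5032 and 3953 FPKM in the 2 kinds of tumour and 16.9 FPKM in normal livers. Of the 7 stellate cell and fibroblast markers 5 rose and 1 fell in each kind of tumour (6 and 0 with equal totals). Of the 6 endothelial markers 3 rose and 1 fell in Akt/Nras tumours and 3 rose and 0 fell in Akt/Nras/Foxo1AAA tumours (5 and 0 in each with equal totals). Of the 5 tested of 6 erythroid markers 0 rose and 1 fell in Akt/Nras tumours (3 and 0 with equal totals), and 3 rose and 0 fell in Akt/Nras/Foxo1AAA tumours (4 and 0). Neutrophil markers summed to 12.6 to 26.0 FPKM in Akt/Nras tumours, 7.73 to 27.5 FPKM in Akt/Nras/Foxo1AAA tumours and 0.964 to 4.24 FPKM in normal livers, and lymphocyte markers to at most 2.02 FPKM in any library. The markers Sox9, Cftr, Lyve1, S100a8 and Csf3r were under 1 FPKM in every normal liver, so their level in tumours is what brought them into the test. No marker of the first 3 lists was at 0 in every library of a group. In bulk tissue, fewer cells of a type and less RNA per cell cannot be told apart, and the part of these marker differences in the results was not tested.

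Promoter windows from RefSeq, on build GRCm38.p6, from 250 bases before to 50 bases after a gene's start, were found for 7 of the 10 genes; there was none for Gclc, Hmox1 and Gsr. They were searched on both strands for the core of the antioxidant response element, TGACNNNGC, for the variant TGAGNNNGC and for the AP-1 letters TGANTCA, which can overlap the variant. The core stood in 4 of the 9 windows (Txnrd1 has 3), those of Nfe2l2, Srxn1, Gclm and 1 of Txnrd1, and in 12.4% of all 32851 windows; the variant stood in Srxn1 and Slc7a11 and in 17.6% of all, and TGANTCA in Srxn1 and in 7.81% of all. The windows printed here are those of the 3 tested genes with the largest increases, of Gclm and of Slc7a11, with every match in capitals and matches on the opposite strand shown as their reverse complement.
Srxn1, chr2:152105274-152105573, plus strand: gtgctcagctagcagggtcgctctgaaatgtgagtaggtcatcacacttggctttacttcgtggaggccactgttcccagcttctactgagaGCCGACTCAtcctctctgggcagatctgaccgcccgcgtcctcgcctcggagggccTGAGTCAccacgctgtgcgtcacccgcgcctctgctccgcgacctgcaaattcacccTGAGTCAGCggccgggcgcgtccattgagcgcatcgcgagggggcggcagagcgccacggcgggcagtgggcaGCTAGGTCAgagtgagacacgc
Nfe2l2, chr2:75704614-75704913, minus strand: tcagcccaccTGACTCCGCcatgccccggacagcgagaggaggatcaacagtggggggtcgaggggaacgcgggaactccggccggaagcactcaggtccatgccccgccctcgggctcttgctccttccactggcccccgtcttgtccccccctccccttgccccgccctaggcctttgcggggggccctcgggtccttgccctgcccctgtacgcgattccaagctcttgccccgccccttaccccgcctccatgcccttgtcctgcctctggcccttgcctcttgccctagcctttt
Gclm, chr3:122245307-122245606, plus strand: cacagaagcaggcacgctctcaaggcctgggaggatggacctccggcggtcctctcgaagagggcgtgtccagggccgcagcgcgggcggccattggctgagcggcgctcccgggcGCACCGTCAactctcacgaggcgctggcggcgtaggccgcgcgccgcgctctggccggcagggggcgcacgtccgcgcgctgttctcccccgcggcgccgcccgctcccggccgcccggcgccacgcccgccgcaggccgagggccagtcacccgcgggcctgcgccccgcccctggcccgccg
Nqo1, chr8:107403156-107403455, minus strand: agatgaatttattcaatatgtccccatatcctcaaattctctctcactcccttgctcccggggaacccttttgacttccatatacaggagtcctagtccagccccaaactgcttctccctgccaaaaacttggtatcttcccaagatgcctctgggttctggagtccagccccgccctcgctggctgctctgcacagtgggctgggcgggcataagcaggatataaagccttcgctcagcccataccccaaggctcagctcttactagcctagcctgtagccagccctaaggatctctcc
Slc7a11, chr3:50443564-50443863, minus strand: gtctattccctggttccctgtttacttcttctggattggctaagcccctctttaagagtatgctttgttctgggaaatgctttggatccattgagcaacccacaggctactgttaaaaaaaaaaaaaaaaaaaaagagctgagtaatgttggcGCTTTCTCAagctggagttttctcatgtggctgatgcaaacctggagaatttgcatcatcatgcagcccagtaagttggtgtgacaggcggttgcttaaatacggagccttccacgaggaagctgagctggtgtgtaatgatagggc
Counted from the first base of each window, Srxn1 held the variant at bases 93 to 101 on the opposite strand and at 206 to 214, where it overlaps TGANTCA at 206 to 212, a second TGANTCA at 149 to 155, and the core at 279 to 287 on the opposite strand, inside the transcribed part. Nfe2l2 held the core at bases 11 to 19, and Gclm held it at 117 to 125 on the opposite strand, and Slc7a11 held the variant at 154 to 162 on the opposite strand. In Nqo1, and in Keap1, none of the letters searched was in this window; a match is a description of letters and not of a bound site.

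Among the regulators, Nfe2l2 (ENSMUSG00000015839) had 38.8, 44.4 and 43.4 FPKM in Akt/Nras tumours, 34.1, 38.5 and 39.7 FPKM in Akt/Nras/Foxo1AAA tumours, and 16.7, 19.7, 13.4 and 18.2 FPKM in normal livers. Every tumour lay above every normal liver. The means were 42.2 ± 3.00 (SD, n = 3), 37.4 ± 2.98 (SD, n = 3) and, in normal livers, 17.0 ± 2.71 FPKM (SD, n = 4). Nfe2l2 was 2.48-fold higher in Akt/Nras tumours (log2 change of 1.27 with an SE of 0.12; adjusted p = 5.06e-06 by limma) and 2.20-fold higher in the Akt/Nras/Foxo1AAA tumours (log2 change of 1.10 with an SE of 0.12; adjusted p = 2.13e-05 by limma) than in normal liver. A second view does not depend on how a library was scaled: the rank of a gene among the tested genes of its own library. Nfe2l2 stood at the 90.7th to 92.3rd percentile in Akt/Nras tumours, at the 88.4th to 90.3rd in Akt/Nras/Foxo1AAA tumours and at the 72.8th to 79.3rd in normal livers.

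Keap1 (ENSMUSG00000003308), the inhibitor, had 15.2, 13.1 and 14.1 FPKM in Akt/Nras tumours, 13.6, 14.5 and 13.1 FPKM in Akt/Nras/Foxo1AAA tumours, and 15.3, 17.8, 14.8 and 15.5 FPKM in normal livers. The Akt/Nras tumours overlapped the normal livers, and the Akt/Nras/Foxo1AAA tumours lay just below them. Neither difference passed: the log2 change was -0.15 (SE 0.08; adjusted p = 0.129, limma) in Akt/Nras tumours and -0.19 (SE 0.08; adjusted p = 0.0737, limma) in Akt/Nras/Foxo1AAA tumours relative to normal liver, and its sign turned with equal totals, to 0.76 and 0.49, values near the median of all genes on that scale. By rank Keap1 lay at the 76.1st to 78.0th percentile in Akt/Nras tumours, the 74.9th to 76.8th in Akt/Nras/Foxo1AAA tumours and the 74.7th to 77.6th in normal livers, so the 3 ranges overlapped.

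Glutathione is made in a first, rate-limiting step by glutamate-cysteine ligase, of which Gclc encodes the catalytic and Gclm the modifier subunit. Gclc (ENSMUSG00000032350) had 144, 118 and 104 FPKM in Akt/Nras tumours, 99.7, 109 and 100 FPKM in Akt/Nras/Foxo1AAA tumours, and 73.3, 83.5, 61.7 and 77.3 FPKM in normal livers. All tumours lay above all normal livers, with replicate 1 of the Akt/Nras tumours the highest. Gclc was 1.65-fold higher in Akt/Nras tumours (mean 122 ± 20.1 FPKM; SD, n = 3) than in normal liver (mean 74.0 ± 9.16 FPKM; SD, n = 4; log2 change of 0.71 with an SE of 0.13; adjusted p = 0.000522 by limma). It was 1.39-fold higher in Akt/Nras/Foxo1AAA tumours, at 103 ± 5.26 FPKM (mean ± SD of 3; log2 change of 0.48 with an SE of 0.13; adjusted p = 0.00735 by limma).

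Gclm (ENSMUSG00000028124) had 26.6, 33.8 and 32.6 FPKM in Akt/Nras tumours, 48.9, 47.0 and 38.9 FPKM in Akt/Nras/Foxo1AAA tumours, and 54.0, 61.9, 54.9 and 54.5 FPKM in normal livers. The 3 groups did not overlap, and normal livers were the highest. Against normal liver, at 56.3 ± 3.74 FPKM (SD, n = 4), Gclm was 1.82-fold lower in Akt/Nras tumours, at 31.0 ± 3.83 FPKM (mean ± SD of 3; log2 change of -0.85 with an SE of 0.11; adjusted p = 5.01e-05 by limma), on the deposited scale. With equal totals that log2 change was 0.10, under the median of 0.70 of all genes on that scale, and was not called (limma adjusted p = 0.356). With median-of-ratios scaling, where the median of all genes was 0.003, Gclm kept its lower call in Akt/Nras tumours. With a mean of 44.9 ± 5.33 FPKM in Akt/Nras/Foxo1AAA tumours (SD, n = 3), it was 1.25-fold lower (log2 change of -0.32 with an SE of 0.11; adjusted p = 0.0246 by limma), and with equal totals the sign turned to 0.39 (limma adjusted p = 0.00555). Without replicate 3 of the Akt/Nras/Foxo1AAA tumours or replicate 2 of the normal livers that last call was lost (limma adjusted p = 0.105 and 0.0639), as it was with median-of-ratios scaling (limma adjusted p = 0.12). By rank Gclm lay at the 86.8th to 89.9th percentile in Akt/Nras tumours, just below the 90.0th to 91.0th of normal livers, and at the 90.0th to 91.8th in Akt/Nras/Foxo1AAA tumours, which overlapped normal livers.

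Slc7a11 (ENSMUSG00000027737), the transport subunit of the cystine importer that supplies cysteine for glutathione, was low in FPKM, a value that divides its reads by a length of 13922 bases. Slc7a11 had 0.812, 0.545 and 0.418 FPKM in Akt/Nras tumours and 0.230, 0.293 and 1.30 FPKM in Akt/Nras/Foxo1AAA tumours, and was at 0 in all 4 normal livers. These values rest on 186, 135 and 124 reads in Akt/Nras tumours, on 58, 73 and 258 reads in Akt/Nras/Foxo1AAA tumours and on 0 reads in every normal liver. A count of 0 allows up to 3 reads, which are 0.0184 to 0.0245 FPKM per normal liver, so the mean of Slc7a11 was at least 24.2-fold higher in Akt/Nras tumours and at least 24.8-fold higher in Akt/Nras/Foxo1AAA tumours. Without replicate 3 of the Akt/Nras/Foxo1AAA tumours that second limit was 10.7-fold. It did not reach 1 FPKM in 3 libraries and was not among the tested genes; with no filter the log2 change, which the pseudocount shrinks, was 0.66 (limma adjusted p = 0.0245) and 0.62 (limma adjusted p = 0.0369).

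Reduction of oxidised glutathione, thioredoxin and peroxiredoxin is the task of Gsr, Txnrd1 and Srxn1. Gsr (ENSMUSG00000031584), glutathione reductase, had 64.9, 38.3 and 39.0 FPKM in Akt/Nras tumours, 32.5, 29.9 and 36.9 FPKM in Akt/Nras/Foxo1AAA tumours, and 33.1, 30.4, 35.4 and 31.9 FPKM in normal livers. The Akt/Nras tumours lay above the other 2 groups, replicate 1 far above, and the Akt/Nras/Foxo1AAA tumours overlapped normal livers. Gsr was 1.45-fold higher in Akt/Nras tumours than in normal liver (log2 change of 0.48 with an SE of 0.17; adjusted p = 0.0249 by limma). Without replicate 1 the log2 change was 0.24 and was not called (limma adjusted p = 0.0582). Leaving out replicate 2 or replicate 4 of the normal livers, or testing with no filter on low values, also ended the call (limma adjusted p = 0.0574, 0.0513 and 0.0529). In Akt/Nras/Foxo1AAA tumours the log2 change of Gsr against normal liver was 0.01 (SE 0.17; adjusted p = 0.947, limma), and with equal totals it was 0.71.

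Txnrd1 (ENSMUSG00000020250), cytosolic thioredoxin reductase, had 46.0, 33.0 and 32.2 FPKM in Akt/Nras tumours, 34.8, 34.8 and 38.1 FPKM in Akt/Nras/Foxo1AAA tumours, and 29.4, 29.4, 25.6 and 28.5 FPKM in normal livers. All tumours lay above all normal livers, again with replicate 1 of the Akt/Nras tumours the highest. The increase was small, 1.31-fold in Akt/Nras tumours (log2 change of 0.36 with an SE of 0.12; adjusted p = 0.0198 by limma) and 1.27-fold in Akt/Nras/Foxo1AAA tumours (log2 change of 0.34 with an SE of 0.12; adjusted p = 0.0303 by limma). The first call was lost without replicate 1 of the Akt/Nras tumours (limma adjusted p = 0.0563) or replicate 3 of the normal livers (limma adjusted p = 0.0525). The second was lost when any Akt/Nras/Foxo1AAA tumour, or replicate 3 or 4 of the normal livers, was left out, and with no filter on low values (limma adjusted p between 0.0519 and 0.0932).

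Srxn1 (ENSMUSG00000032802), sulfiredoxin, which repairs over-oxidised peroxiredoxins, had 59.0, 39.7 and 40.9 FPKM in Akt/Nras tumours, 66.5, 57.2 and 49.7 FPKM in Akt/Nras/Foxo1AAA tumours, and 17.0, 16.6, 13.0 and 19.4 FPKM in normal livers. The lowest tumour, at 39.7 FPKM, lay above the highest normal liver, at 19.4 FPKM. Srxn1 was 2.82-fold higher in Akt/Nras tumours (mean 46.5 ± 10.8 FPKM; SD, n = 3) than in normal liver (mean 16.5 ± 2.67 FPKM; SD, n = 4; log2 change of 1.43 with an SE of 0.17; adjusted p = 2.38e-05 by limma). With a mean of 57.8 ± 8.42 FPKM in Akt/Nras/Foxo1AAA tumours (SD, n = 3), it was 3.50-fold higher (log2 change of 1.75 with an SE of 0.17; adjusted p = 7.94e-06 by limma), the largest increase of any tested member in either comparison. Its rank was at the 90.9th to 93.9th percentile in Akt/Nras tumours, the 92.3rd to 93.8th in Akt/Nras/Foxo1AAA tumours and the 72.2nd to 79.2nd in normal livers.

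Nqo1 (ENSMUSG00000003849), a quinone reductase often used as a readout of NRF2, had 14.2, 7.14 and 9.34 FPKM in Akt/Nras tumours, 9.01, 9.51 and 12.1 FPKM in Akt/Nras/Foxo1AAA tumours, and 3.24, 3.52, 2.56 and 3.07 FPKM in normal livers. It was low in normal liver, with 38 to 59 reads per library there, and every tumour lay above every normal liver. Nqo1 was 3.30-fold higher in Akt/Nras tumours (mean 10.2 ± 3.60 FPKM; SD, n = 3) than in normal liver (mean 3.10 ± 0.404 FPKM; SD, n = 4; log2 change of 1.41 with an SE of 0.19; adjusted p = 6.14e-05 by limma). It was 3.29-fold higher in Akt/Nras/Foxo1AAA tumours, at 10.2 ± 1.65 FPKM (mean ± SD of 3; log2 change of 1.45 with an SE of 0.19; adjusted p = 6.71e-05 by limma). By rank it lay at the 61.0th to 76.5th percentile in Akt/Nras tumours, the 66.1st to 73.1st in Akt/Nras/Foxo1AAA tumours and the 33.7th to 42.1st in normal livers.

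Hmox1 (ENSMUSG00000005413), heme oxygenase 1, which opens the heme ring, had 19.9, 18.6 and 22.1 FPKM in Akt/Nras tumours, 22.4, 21.6 and 20.0 FPKM in Akt/Nras/Foxo1AAA tumours, and 13.6, 14.1, 10.9 and 14.8 FPKM in normal livers. Tumours and normal livers did not overlap. Hmox1 was 1.51-fold higher in Akt/Nras tumours (log2 change of 0.57 with an SE of 0.11; adjusted p = 0.000742 by limma) and 1.60-fold higher in the Akt/Nras/Foxo1AAA tumours (log2 change of 0.64 with an SE of 0.11; adjusted p = 0.00039 by limma) than in normal liver. Kupffer cells, the liver macrophages that clear aged red cells, are known to express it. Their markers Clec4f and Timd4 were 2.26-fold and 2.12-fold lower in Akt/Nras tumours than in normal liver on the deposited scale (neither was called with equal totals), were not called in Akt/Nras/Foxo1AAA tumours, and Marco and Cd163 were called in neither. The higher macrophage sums given above were made up mostly of C1qa, C1qb and Lyz2. Red cell RNA also differed: Hbb-bs had 600 FPKM in Akt/Nras tumours, 1098 FPKM in Akt/Nras/Foxo1AAA tumours and 445 FPKM in normal livers, and was called higher in Akt/Nras/Foxo1AAA tumours (limma adjusted p = 0.00783). The part of these markers in the Hmox1 result was not tested.

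**Figure D1:**
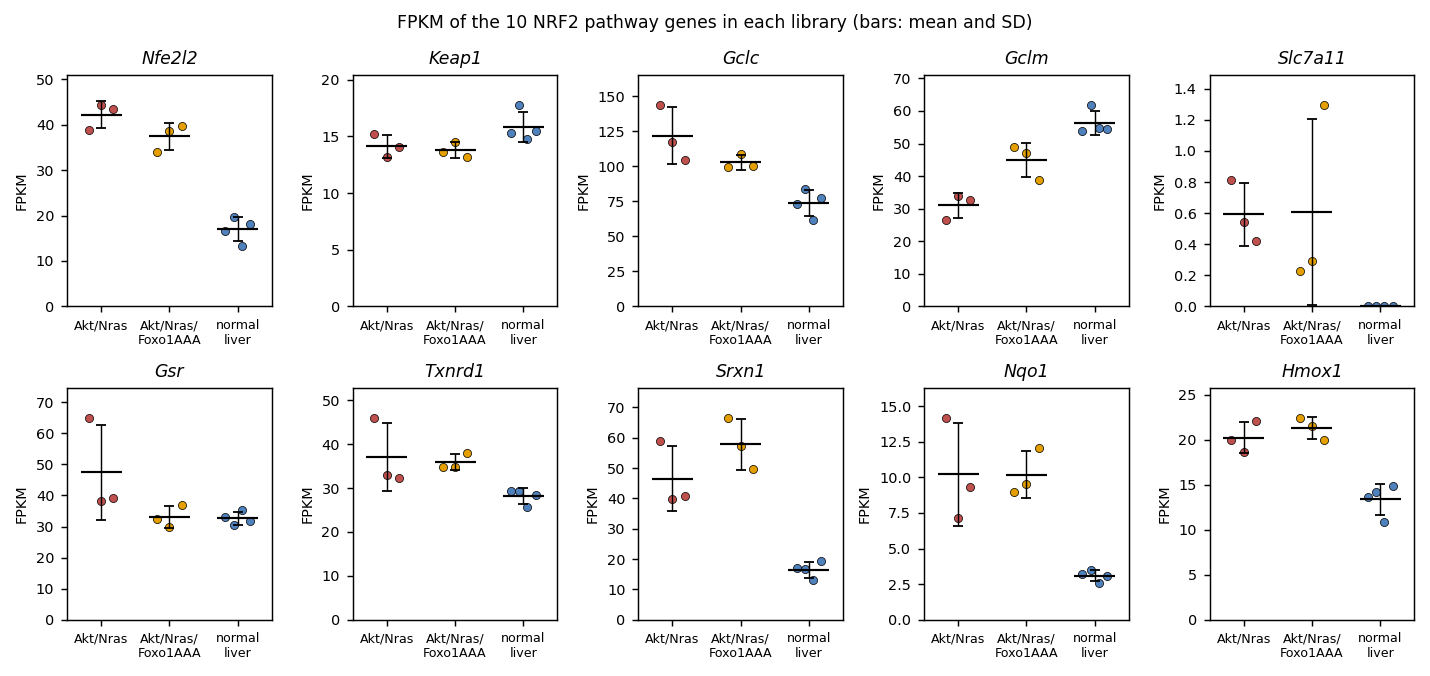
FPKM of the 10 genes (vertical axes, each from 0) in every library of Akt/Nras tumours, Akt/Nras/Foxo1AAA tumours and normal livers; points are libraries, horizontal lines the means and bars the SD. Nfe2l2, Nqo1, Srxn1, Gclc, Hmox1 and Txnrd1 lie above normal liver in all 6 tumours, Gclm lies below it on this deposited scale but not with equal totals, and Slc7a11 is at 0 in the 4 normal livers. The share of all tested genes that lie apart in this way was not counted. On this scale 31.1% of all tested genes were called higher in Akt/Nras tumours and 26.8% in Akt/Nras/Foxo1AAA tumours.

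Set beside all tested genes, 7 of the 9 tested members were called higher in Akt/Nras tumours than in normal liver, against 31.1% of all tested genes, and 1, Gclm, was called lower, against 37.9%. With equal totals 8 were higher and 0 lower, against 69.2% and 13.8% of all tested genes on that scale. The median log2 change of these 9 members was 0.57, that of all tested genes -0.07. In Akt/Nras/Foxo1AAA tumours 6 were called higher, against 26.8% of all tested genes, and 1 lower, against 36.5%, with a median of 0.48 for the members and -0.09 for all genes. With equal totals 9 were higher and 0 lower, against 60.9% and 13.5% of all tested genes. Both comparisons use the same 4 normal livers, so their values are given side by side and not as independent of each other. How many of all tested genes had no overlap between tumours and normal livers was not counted. The lack of overlap of single members therefore has no such share beside it.

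**Figure D2:**
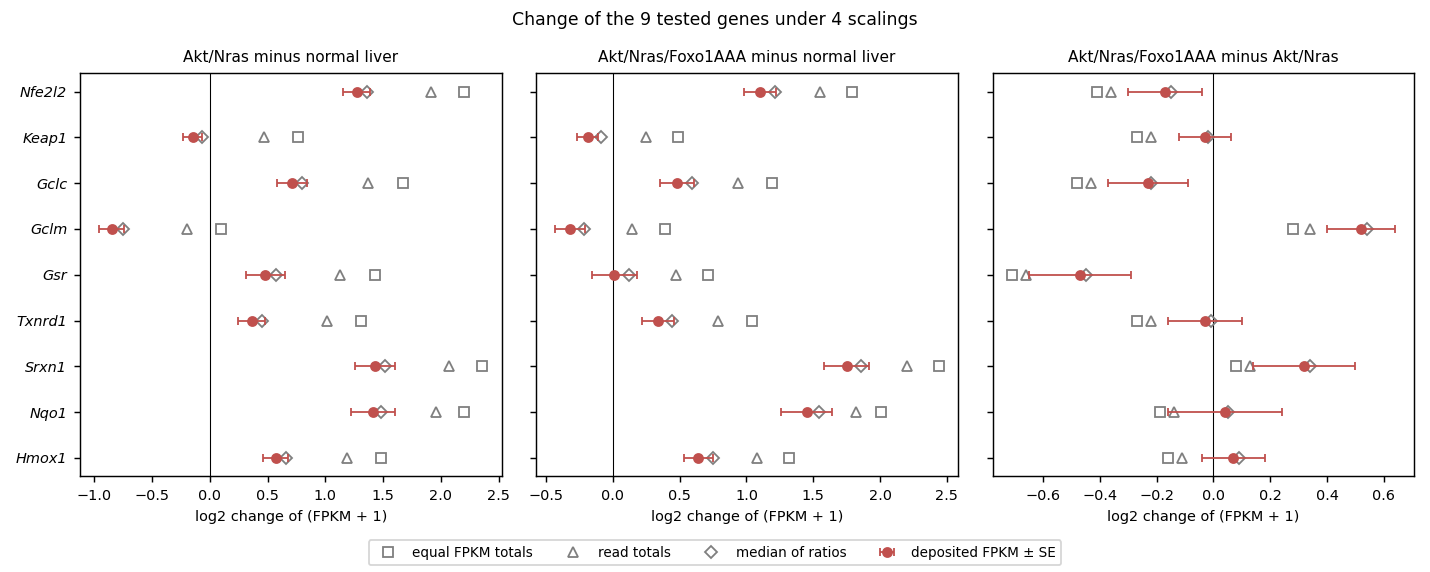
Log2 change of (FPKM + 1) of the 9 tested genes (horizontal axes) for each tumour group minus normal liver and for Akt/Nras/Foxo1AAA minus Akt/Nras tumours; filled points with bars are the deposited scale with the SE, and open marks are equal FPKM totals, read totals and median-of-ratios scaling. Equal totals move every member to the right against normal liver, which takes Gclm and Keap1 across 0 (Gclm to 0.10 and 0.39), and leave Srxn1, Nqo1 and Nfe2l2 furthest to the right.

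Akt/Nras/Foxo1AAA tumours were then set against Akt/Nras tumours, the comparison in which the groups differ by Foxo1AAA. Of the 9 tested members 1 was called higher, against 7.93% of all tested genes, and none lower, against 4.13%. With equal totals 0 were higher and 4 lower, against 5.27% and 26.1%. By limma 2 members had an unadjusted p under 0.05, and the median log2 change was -0.03 for the members and -0.01 for all genes. Gclm was the one called, 1.45-fold higher in Akt/Nras/Foxo1AAA tumours (log2 change of 0.52 with an SE of 0.12; adjusted p = 0.0203 by limma), with no overlap between the groups. The direction held under every alternative, but the call did not: the limma adjusted p was 0.0703 with equal totals and 0.0506 with read totals. It was also lost without replicate 1 of the Akt/Nras tumours (limma adjusted p = 0.0544) and without replicate 1 or 2 of the Akt/Nras/Foxo1AAA tumours (0.0803 and 0.0732).

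Gsr had a log2 change of -0.47 (SE 0.18) and groups that did not overlap, yet was not called on the deposited scale (limma adjusted p = 0.115), whereas it was with equal totals (log2 change -0.71, limma adjusted p = 0.0199). For Srxn1 the log2 change was 0.32 (SE 0.18, limma adjusted p = 0.27), for Gclc -0.23 (SE 0.14, limma adjusted p = 0.291) and for Nfe2l2 -0.17 (SE 0.13, limma adjusted p = 0.429). Nqo1, Hmox1, Txnrd1 and Keap1 lay between -0.03 and 0.07 on the log2 scale, with SEs of 0.09 to 0.20. Slc7a11 had 0.607 ± 0.599 FPKM in Akt/Nras/Foxo1AAA tumours and 0.592 ± 0.201 FPKM in Akt/Nras tumours (SD, n = 3 each), the spread in the first coming from replicate 3. The missed thresholds do not show that the tumour groups are alike for these genes.

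Because FPKM is per length, the order of the 10 genes can be read within a group. In Akt/Nras tumours the mean was highest for Gclc at 122 FPKM, followed by Gsr at 47.4, Srxn1 at 46.5, Nfe2l2 at 42.2, Txnrd1 at 37.0, Gclm at 31.0, Hmox1 at 20.2, Keap1 at 14.1, Nqo1 at 10.2 and Slc7a11 at 0.592 FPKM. In Akt/Nras/Foxo1AAA tumours Gclc at 103 FPKM was followed by Srxn1 at 57.8, Gclm at 44.9, Nfe2l2 at 37.4, Txnrd1 at 35.9, Gsr at 33.1, Hmox1 at 21.3, Keap1 at 13.8, Nqo1 at 10.2 and Slc7a11 at 0.607 FPKM. Normal livers had Gclc at 74.0, Gclm at 56.3, Gsr at 32.7, Txnrd1 at 28.2, Nfe2l2 at 17.0, Srxn1 at 16.5, Keap1 at 15.8, Hmox1 at 13.4 and Nqo1 at 3.10 FPKM, with Slc7a11 at 0. The order of neighbours changed from library to library from Gsr to Gclm in Akt/Nras tumours, from Gclm to Txnrd1 in Akt/Nras/Foxo1AAA tumours and from Nfe2l2 to Keap1 in normal livers, and is not resolved there. Keap1 and Nqo1 in Akt/Nras tumours, Txnrd1 and Gsr in Akt/Nras/Foxo1AAA tumours, and Gclc and Gclm as well as Keap1 and Hmox1 in normal livers overlapped between libraries, but within every library of the group the first stood above the second.

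Ratios of 2 members within a library are free of its scaling. Gclm to Gclc was 0.185, 0.287 and 0.312 in Akt/Nras tumours, 0.490, 0.432 and 0.389 in Akt/Nras/Foxo1AAA tumours, and 0.736, 0.741, 0.889 and 0.705 in normal livers. The 3 groups did not overlap: the modifier subunit was lowest relative to the catalytic one in Akt/Nras tumours and highest in normal livers. The mean ratio was 0.261 ± 0.0674 (SD, n = 3), 0.437 ± 0.0509 (SD, n = 3) and, in normal livers, 0.768 ± 0.0822 (SD, n = 4). Against normal liver the difference of the mean log2 ratios was -1.58 in Akt/Nras tumours and -0.81 in Akt/Nras/Foxo1AAA tumours, each with a two-sided exact permutation p of 0.0571, the smallest that 3 against 4 libraries can give (adjusted p = 0.124 over 13 ratio tests). Between Akt/Nras/Foxo1AAA and Akt/Nras tumours it was 0.77, with an exact permutation p of 0.1, the smallest for 3 against 3 (adjusted p = 0.163).

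Keap1 to Nfe2l2, the inhibitor relative to the factor, averaged 0.337 ± 0.0492 in Akt/Nras tumours (SD, n = 3), 0.369 ± 0.0354 in Akt/Nras/Foxo1AAA tumours (SD, n = 3) and 0.944 ± 0.112 in normal livers (SD, n = 4). Tumours and normal livers did not overlap, and the log2 differences were -1.49 for Akt/Nras and -1.35 for Akt/Nras/Foxo1AAA tumours (exact permutation p = 0.0571 for each, adjusted p = 0.124). The tumour groups overlapped (log2 difference 0.14, exact permutation p = 0.4). The readout relative to the factor, Nqo1 to Nfe2l2, was 0.365, 0.161 and 0.215 in Akt/Nras tumours, 0.264, 0.247 and 0.304 in Akt/Nras/Foxo1AAA tumours and 0.168 to 0.195 in normal livers. It overlapped normal livers in Akt/Nras tumours (log2 difference 0.35, exact permutation p = 0.4) and not in Akt/Nras/Foxo1AAA tumours (log2 difference 0.57, exact permutation p = 0.0571).

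Txnrd1 to Gsr, the reductase of thioredoxin relative to that of glutathione, averaged 0.798 ± 0.0803 in Akt/Nras tumours (SD, n = 3), 1.09 ± 0.0699 in Akt/Nras/Foxo1AAA tumours (SD, n = 3) and 0.868 ± 0.103 in normal livers (SD, n = 4). It was above 1 in each Akt/Nras/Foxo1AAA tumour and below 1 in each of the other 7 libraries. The log2 difference of Akt/Nras/Foxo1AAA tumours was 0.45 against Akt/Nras tumours (exact permutation p = 0.1) and 0.33 against normal livers (exact permutation p = 0.0571). Akt/Nras tumours differed from normal livers by -0.12 on that scale (exact permutation p = 0.343). Slc7a11 to Gclc could be compared between the tumour groups only, and Akt/Nras/Foxo1AAA minus Akt/Nras tumours was -0.13 (exact permutation p = 1). None of the 13 tests passed 0.05, since the group sizes do not allow it.

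**Figure D3:**
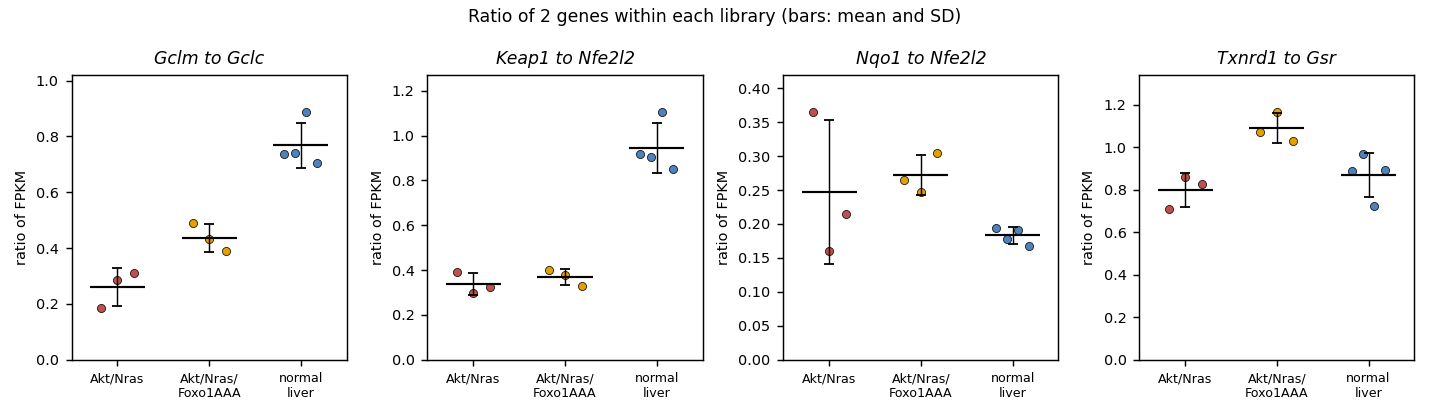
Ratio of the FPKM of 2 genes within each library (vertical axes, each from 0) for Akt/Nras tumours, Akt/Nras/Foxo1AAA tumours and normal livers; points are libraries, lines the means and bars the SD. Gclm to Gclc separates all 3 groups (means 0.261, 0.437 and 0.768), and Keap1 to Nfe2l2 separates the 6 tumours from the 4 normal livers.

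The members varied within groups in ways that followed single libraries. Replicate 1 of the Akt/Nras tumours was the highest of its group for 6 of the 9 tested members, Keap1, Nqo1, Gclc, Txnrd1, Srxn1 and Gsr, and the lowest for Nfe2l2 and Gclm; it was the highest for 40.7% of all tested genes. Replicate 3 of the normal livers was the lowest of its group for 7 of the 9, against 26.6% of all tested genes. Across the 10 libraries, as a description in which points share group and scaling, Pearson's r of log2(FPKM + 1) ran from -0.835 for Gclc with Gclm to 0.953 for Hmox1 with Srxn1, and Gclm was negative with every other tested member except Keap1 (r = 0.517). The genes most like Nqo1 over the 10 libraries, of 3888 candidates with a mean of at least 10 FPKM, were Tnfrsf1a (r = 0.988), Zfp385a (r = 0.987) and Btg2 (r = 0.987), and those most like Nfe2l2 were Cotl1, Actn1 and Nudt19 (r = 0.987 each, of 3887 candidates).

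Regulators and partners of NRF2 made up a list of 13 genes, 11 of them tested. In Akt/Nras tumours 2 rose and 4 fell against normal liver (8 and 0 with equal totals), with a median log2 change of -0.01 beside -0.07 for all genes. Of all tested genes 31.1% rose and 37.9% fell in that comparison (69.2% and 13.8% with equal totals). In Akt/Nras/Foxo1AAA tumours 4 rose and 3 fell (7 and 0 with equal totals), with a median of -0.10 beside -0.09, against 26.8% and 36.5% of all tested genes (60.9% and 13.5% with equal totals). These shares of all genes are also those to set beside the counts of the other lists. The small MAF genes, whose proteins pair with NRF2, went different ways. Maff had 13.9 ± 5.33 FPKM in Akt/Nras tumours, 8.91 ± 3.19 FPKM in Akt/Nras/Foxo1AAA tumours and 4.29 ± 1.28 FPKM in normal livers (log2 changes 1.47 and 0.89). Mafk had 13.1 ± 3.12, 12.7 ± 1.29 and, in normal livers, 5.48 ± 0.149 FPKM (log2 changes 1.10 and 1.08). Mafg fell in both, to 11.1 ± 2.51 FPKM in Akt/Nras tumours and 12.1 ± 0.145 FPKM in Akt/Nras/Foxo1AAA tumours, against 21.7 ± 3.10 FPKM in normal livers (log2 changes -0.91 and -0.79), but was called in neither with equal totals (limma adjusted p = 0.991 and 0.489). The Maff call in Akt/Nras/Foxo1AAA tumours was lost without their replicate 3 (limma adjusted p = 0.0867) or replicate 3 of the normal livers (0.052).

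Bach1, a repressor that competes for the same elements, was lower on the deposited scale in both kinds of tumour, by -0.61 and -0.46 on the log2 scale, but stood at 0.26 and 0.19 with equal totals. In Akt/Nras/Foxo1AAA tumours its call was also lost without their replicate 1 or 2 (limma adjusted p = 0.138 for each) or replicate 2 or 4 of the normal livers (0.081 and 0.0871). Btrc, a subunit of a second ligase for NRF2, had a log2 change of -0.31 in Akt/Nras tumours, which turned to 0.19 with equal totals, and Cul3 one of -0.35 in Akt/Nras/Foxo1AAA tumours, which turned to 0.32. Sqstm1, which encodes p62, a KEAP1-binding autophagy receptor and itself an NRF2 target, was 1.43-fold higher in Akt/Nras/Foxo1AAA tumours (mean 205 ± 15.0 FPKM; SD, n = 3) than in normal liver (mean 143 ± 11.6 FPKM; SD, n = 4; limma adjusted p = 0.00491). In Akt/Nras tumours it had 152 ± 27.7 FPKM and was not called on the deposited scale (limma adjusted p = 0.64), but was with equal totals (log2 change 1.04, limma adjusted p = 9.35e-06) and with read totals (0.73, limma adjusted p = 0.000163). Between the tumour groups none of the 11 was called in either direction by limma on the deposited scale. With equal totals Cul3 and Rbx1 were called lower in Akt/Nras/Foxo1AAA tumours (log2 change -0.37 each, limma adjusted p = 0.0116 and 0.00761), beside 26.1% of all tested genes. Both were also called lower with read totals (limma adjusted p = 0.0212 and 0.0133).

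A further 40 genes known as NRF2 targets, 37 of them tested, made up a second list. In Akt/Nras tumours 14 rose and 16 fell against normal liver (22 and 6 with equal totals), beside 31.1% and 37.9% of all tested genes (69.2% and 13.8%), with a median log2 change of -0.31. In Akt/Nras/Foxo1AAA tumours 14 rose and 11 fell (24 and 5 with equal totals), beside 26.8% and 36.5% (60.9% and 13.5%), with a median of -0.01. Among those that rose were the carbonyl reductase Cbr3, at 12.2 ± 3.51 FPKM in Akt/Nras tumours, 8.35 ± 1.34 FPKM in Akt/Nras/Foxo1AAA tumours and 0.479 ± 0.269 FPKM in normal livers, which is 25.4-fold and 17.4-fold higher. Ptgr1, prostaglandin reductase, was 11.6-fold higher in Akt/Nras tumours and 9.67-fold higher in the Akt/Nras/Foxo1AAA tumours, at 24.4 ± 5.24 and 20.2 ± 4.20 FPKM against 2.09 ± 0.690 FPKM in normal livers. The glutathione transferase Gsta1 was 21.7-fold higher in each kind of tumour, at 7.83 ± 3.94 and 7.84 ± 4.27 FPKM against 0.361 ± 0.234 FPKM in normal livers; its reads may be shared with near-identical family members, which makes its value uncertain. Cbr3 and Gsta1 stayed under 1 FPKM in every normal liver and were tested only because of their level in tumours. The same holds for Abcc4, which is counted among the genes that rose in each kind of tumour and had at most 0.682 FPKM in a normal liver.

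Other targets fell. Cyp2a5, a cytochrome P450 with close paralogs, had 117 ± 37.0 FPKM in Akt/Nras tumours, 233 ± 19.9 FPKM in Akt/Nras/Foxo1AAA tumours and 659 ± 60.7 FPKM in normal livers (log2 changes -2.52 and -1.50). Gsta3 had 110 ± 2.65, 156 ± 24.2 and, in normal livers, 537 ± 32.7 FPKM (log2 changes -2.28 and -1.79). On the deposited scale the aldo-keto reductase Akr7a5 was 3.75-fold lower in Akt/Nras tumours (log2 change -1.90) and 2.27-fold lower in Akt/Nras/Foxo1AAA tumours (-1.19). Me1, the malic enzyme that makes NADPH, was 2.04-fold lower in Akt/Nras tumours (log2 change -0.96) and 2.65-fold lower in Akt/Nras/Foxo1AAA tumours (-1.32). These genes are also abundant in hepatocytes, all 10 markers of which fell on the deposited scale. With equal totals 7 of those markers fell in each kind of tumour, and 2 rose in Akt/Nras/Foxo1AAA tumours. The part of the marker differences in these values was not tested.

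Between the tumour groups 10 of these 37 were called higher in Akt/Nras/Foxo1AAA than in Akt/Nras tumours and none lower, beside 7.93% and 4.13% of all tested genes (7 and 6 with equal totals, beside 5.27% and 26.1%), with a median log2 change of 0.20 beside -0.01 for all genes. Without replicate 1 of the Akt/Nras tumours 6 were called higher, and with the replicate number as a block 4 were. With only these 2 groups in the fit, 5 of all 12439 tested genes were called higher and 5 lower, against 986 and 514 with all libraries. Most calls between the tumour groups, in this list and the others, therefore depended on having the normal livers in the fit. Osgin1, an oxidative stress-induced growth inhibitor, had 218 ± 50.4 FPKM in Akt/Nras/Foxo1AAA tumours and 106 ± 26.1 FPKM in Akt/Nras tumours (SD, n = 3 each; log2 change 1.04, limma adjusted p = 0.0211). Cyp2a5 had a log2 change of 1.03 (limma adjusted p = 0.00974) and Gstm4, again with close paralogs, one of 0.81 (limma adjusted p = 0.0193). The Osgin1 call was lost without replicate 1 or 3 of the Akt/Nras tumours or replicate 1 or 2 of the Akt/Nras/Foxo1AAA tumours (limma adjusted p of 0.0549 to 0.0846), and the Gstm4 call without replicate 1 or 2 of the Akt/Nras tumours (0.0545 and 0.0528). In the same comparison 6 of the 10 hepatocyte markers were called higher and none lower (4 and 0 with equal totals), and 4 of the 6 tested cholangiocyte and progenitor markers were called lower.

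**Figure D4:**
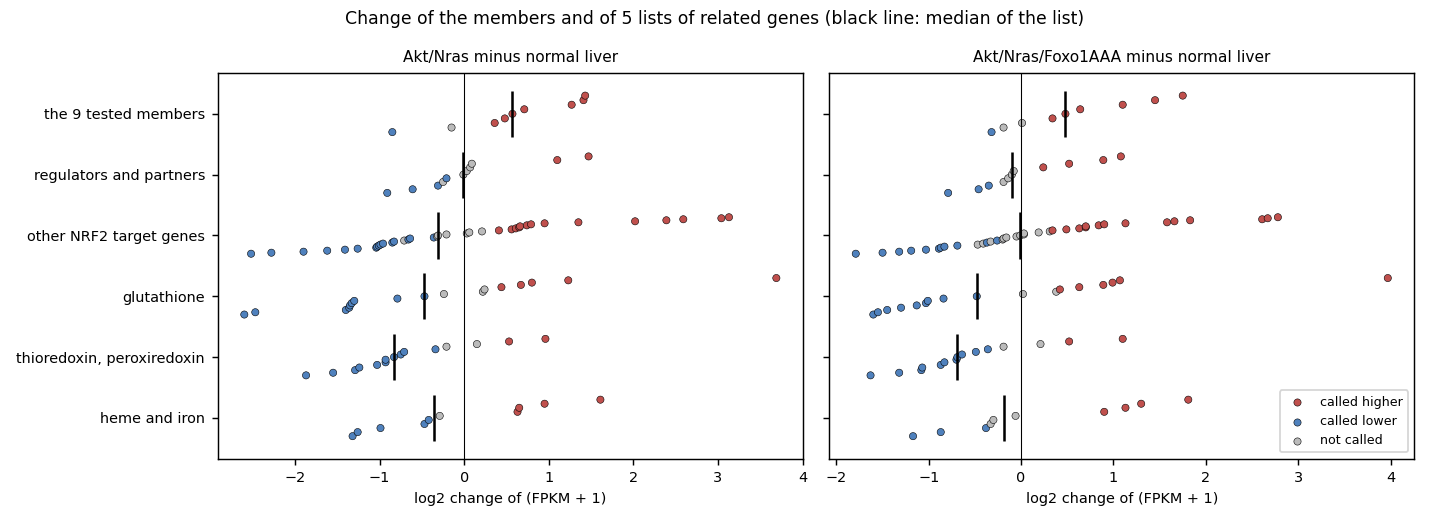
Log2 change of (FPKM + 1) against normal liver (horizontal axes) of the 9 tested members and of the tested genes of 5 lists, for Akt/Nras tumours (left) and Akt/Nras/Foxo1AAA tumours (right), on the deposited scale; points are genes, coloured by call, and black lines are medians. The members have medians of 0.57 and 0.48, and the list medians lie between -0.83 and -0.01, beside -0.07 and -0.09 for all tested genes. With equal totals all genes have medians of 0.70 and 0.46. On that scale the regulators have 0.89 and 0.57, the other targets 0.66 and 0.66, and the heme and iron list 0.44 and 0.37. The glutathione list has 0.19 and 0.01 there, and the thioredoxin list 0.05 and 0.03.

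Of 19 genes of glutathione synthesis, use and breakdown beyond the members, 17 were tested. Against normal liver 5 rose and 9 fell in Akt/Nras tumours (8 and 6 with equal totals; median log2 change -0.47), and 6 rose and 9 fell in Akt/Nras/Foxo1AAA tumours (8 and 7; median -0.48). Ggct, counted among those that rose in each, had at most 0.952 FPKM in a normal liver and was tested only because of its level in tumours. The glutathione peroxidases diverged. Gpx3, the secreted form, had 65.2 ± 27.2 FPKM in Akt/Nras tumours, 77.6 ± 28.7 FPKM in Akt/Nras/Foxo1AAA tumours and 4.11 ± 1.73 FPKM in normal livers (log2 changes 3.69 and 3.97). Gpx4, which reduces lipid peroxides, rose by 0.80 and 0.99 on the log2 scale. Gpx1, the main cytosolic form, fell to 56.6 ± 19.7 FPKM in Akt/Nras tumours and 114 ± 22.1 FPKM in Akt/Nras/Foxo1AAA tumours, against 309 ± 32.9 FPKM in normal livers (log2 changes -2.47 and -1.45).

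Of the enzymes that supply or break down glutathione, Cth, which makes cysteine from cystathionine, had 8.59 ± 2.08 FPKM in Akt/Nras tumours, 18.5 ± 1.96 FPKM in Akt/Nras/Foxo1AAA tumours and 56.2 ± 4.36 FPKM in normal livers (log2 changes -2.60 and -1.55). Chac1, which degrades glutathione, was 2.60-fold higher in Akt/Nras tumours and 2.33-fold higher in the Akt/Nras/Foxo1AAA tumours than in normal liver, the second call being lost without replicate 2 of those tumours (limma adjusted p = 0.0632). The mitochondrial glutaredoxin Glrx5 was 2.68-fold lower in Akt/Nras tumours (log2 change -1.40) and 2.03-fold lower in Akt/Nras/Foxo1AAA tumours (log2 change -1.01). Ggt1, a cell-surface enzyme that cleaves glutathione, had log2 changes of -1.30 in Akt/Nras tumours, which overlapped normal livers, and -1.60 in Akt/Nras/Foxo1AAA tumours. It had 0.549 ± 0.298 and 0.245 ± 0.0182 FPKM against 3.42 ± 2.79 FPKM in normal livers, through which alone it reached the test. Between Akt/Nras/Foxo1AAA and Akt/Nras tumours 2 of the 17 were called higher, Cth (log2 change 1.04) and Gpx1 (log2 change 1.03), and none lower (2 and 1 with equal totals). The shares of all tested genes were 7.93% and 4.13% (5.27% and 26.1% with equal totals). The Gpx1 call was lost without replicate 1 of the Akt/Nras tumours (limma adjusted p = 0.054) or replicate 1 or 2 of the Akt/Nras/Foxo1AAA tumours (0.0681 and 0.0612).

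All 15 genes of the thioredoxin and peroxiredoxin list were tested, 3 of which, Txn1, Prdx1 and Prdx6, also stood among the other targets. In each kind of tumour 2 rose and 11 fell against normal liver (5 and 4 with equal totals in each), with a median log2 change of -0.83 in Akt/Nras and -0.69 in Akt/Nras/Foxo1AAA tumours. While Txnrd1 rose, its mitochondrial paralog Txnrd2 fell to 4.64 ± 0.293 FPKM in Akt/Nras tumours and 5.56 ± 0.530 FPKM in Akt/Nras/Foxo1AAA tumours, against 12.8 ± 0.796 FPKM in normal livers (log2 changes -1.29 and -1.08). Txnrd3 had log2 changes of -1.87 and -1.63, and Txn2, mitochondrial thioredoxin, of -1.55 and -1.32. Sesn2, a stress-induced sestrin, was 2.25-fold higher in Akt/Nras tumours and 2.51-fold higher in the Akt/Nras/Foxo1AAA tumours; the other gene called higher was Prdx2 in Akt/Nras tumours (log2 change 0.53) and Sesn3 in Akt/Nras/Foxo1AAA tumours (log2 change 0.52), which was not called without their replicate 1 (limma adjusted p = 0.0555). Between the tumour groups limma called none of the 15 on the deposited scale. With equal totals 0 were called higher and 3 lower, beside 5.27% and 26.1% of all tested genes, and with read totals 1 was lower.

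Heme and iron handling beside Hmox1 was covered by 10 genes, all tested, 4 of which (Blvrb, Fth1, Ftl1 and Slc48a1) also stood among the other targets. In Akt/Nras tumours 4 rose and 5 fell against normal liver (6 and 2 with equal totals; median log2 change -0.35), and in Akt/Nras/Foxo1AAA tumours 4 rose and 3 fell (6 and 1; median -0.18). Slc48a1, which carries heme out of lysosomes, had 49.1 ± 5.76 FPKM in Akt/Nras tumours, 56.3 ± 9.29 FPKM in Akt/Nras/Foxo1AAA tumours and 24.9 ± 0.521 FPKM in normal livers (log2 changes 0.95 and 1.13). The ferritin subunits parted: the heavy chain Fth1 was 1.58-fold higher in Akt/Nras tumours (log2 change 0.65), whereas the light chain Ftl1, a gene with many processed copies, was 1.97-fold lower on the deposited scale (log2 change -0.99) and stood at -0.01 with equal totals. Slc40a1, the iron exporter ferroportin, fell by 1.32 on the log2 scale in Akt/Nras and by 1.17 in Akt/Nras/Foxo1AAA tumours, and Blvrb, biliverdin reductase B, by 1.26 and 0.87, the second of which was not called with equal totals (limma adjusted p = 0.16).

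The scavengers of free heme and hemoglobin are secreted by hepatocytes. Hp, haptoglobin, had 9017 ± 744 FPKM in Akt/Nras tumours, 10380 ± 1083 FPKM in Akt/Nras/Foxo1AAA tumours and 3037 ± 774 FPKM in normal livers (log2 changes 1.61 and 1.81). Hpx, hemopexin, was 2.47-fold higher in Akt/Nras/Foxo1AAA tumours than in normal liver (log2 change 1.30). Hmox2, the constitutive heme oxygenase, had log2 changes of -0.47 in Akt/Nras and -0.38 in Akt/Nras/Foxo1AAA tumours on the deposited scale, the second of which turned to 0.29 with equal totals. Between Akt/Nras/Foxo1AAA and Akt/Nras tumours 2 of the 10 were called higher, Hpx (log2 change 0.67) and Ftl1 (log2 change 0.66), and none lower, beside 7.93% and 4.13% of all tested genes. Both calls were lost without replicate 1 or 2 of either tumour group (limma adjusted p of 0.0601 to 0.124), and that of Hpx also with equal totals (0.0614) and without replicate 1, 3 or 4 of the normal livers (0.0547 to 0.0571).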

How the data were processed

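Per the file headers, the authors deposited FPKM values, 1 column per library for 56748 genes; all columns belonged to a sample (0 unused). Per the submitters' processing notes, the tool FastQC 0.11.7 and a genome build, GRCm38, are listed with no role; aligner, counter and annotation: not given in the sources used here, and the labels' protocols name either polyA capture or rRNA removal. The build of the deposited coordinates is not named, so none is printed; promoter coordinates are those of RefSeq on GRCm38.p6. Values times gene length gave whole reads, within 0.02 reads, for 100% of values, but the factor behind the deposited scale divided by the summed reads was 1.00 to 1.06 in Akt/Nras tumours, 0.875 to 0.928 in Akt/Nras/Foxo1AAA tumours and 0.629 to 0.668 in normal livers, so scaling differs by group.

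Genes reaching 1 FPKM in 3 or more of the 10 libraries went into limma 3.58.1 in R 4.3.3 (lmFit, contrasts.fit, eBayes with trend) on log2(FPKM + 1), all 10 libraries in 1 fit with a mean per group, two-sided, with Benjamini-Hochberg adjustment over 12439 genes; calls needed an adjusted p under 0.05. Log2 changes are on that scale, which understates low genes; folds are ratios of mean FPKM. The fit was tested on simulated data. Within-library ratios had exact permutation tests (scipy 1.17.1). Alternatives were 3 other scalings, a pseudocount of 0.1, a minimum of 5 FPKM or none, only the groups compared, a replicate block, and each library left out. Named were all members, up to 3 called genes per list, direction and comparison, by size of change, and the 3 genes most like Nqo1 and Nfe2l2. A count of 0 was given a limit of 3 reads. Limits of this kind cover counting error only. The members and lists were chosen with earlier results of these data known.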

Additional observations from a re-analysis of the deposited data

Results flagged for a closer look

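Gclm in normal liver stood apart in 1 library. Replicate 2 had 61.9 FPKM, and the other normal livers had 54.0, 54.9 and 54.5 FPKM; the gap from replicate 2 to its nearest neighbour was 0.886 of the whole range of the group, above Dixon's critical value for a group of 4. Chance alone puts about 0.05 of such groups past that value, and 9 tested members were examined in each group that was large enough, which was normal liver only. The same library was also the highest normal liver for Nfe2l2, Keap1, Nqo1 and Gclc. Without it Gclm kept its lower call in Akt/Nras tumours against normal liver and lost it in Akt/Nras/Foxo1AAA tumours against normal liver (limma adjusted p = 0.0639).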

How the results depend on the processing

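Over the members, 437 values kept direction and side of the threshold under the alternatives, 24 lost and 8 gained a call, and 17 turned sign. With equal totals and with read totals 8 members each were called higher in Akt/Nras tumours and 9 and 8 in Akt/Nras/Foxo1AAA tumours, and 0 members were called lower than normal liver by limma in either kind of tumour. With median-of-ratios scaling all 9 tested members kept direction and call in Akt/Nras tumours, the lower call of Gclm included, and 0 were lower in Akt/Nras/Foxo1AAA tumours. Between Akt/Nras/Foxo1AAA and Akt/Nras tumours 0 were called higher with equal totals, read totals or only these groups in the fit, and 4 (equal totals) and 2 (read totals) were called lower. Leaving out each library in turn gave 5 to 7 members higher and 1 to 1 lower in Akt/Nras tumours, 5 to 6 higher and 0 to 1 lower in Akt/Nras/Foxo1AAA tumours, and 0 to 1 higher and 0 to 0 lower between the tumour groups. The sign turned for Keap1 in Akt/Nras tumours (0.76 with equal totals, 0.47 with read totals), Keap1 in Akt/Nras/Foxo1AAA tumours (0.49 and 0.25), Gclm (0.10 with equal totals in Akt/Nras tumours, 0.39 and 0.14 in Akt/Nras/Foxo1AAA tumours) and Gsr in Akt/Nras/Foxo1AAA tumours (-0.02 without normal liver replicate 2, -0.07 without Akt/Nras/Foxo1AAA replicate 3, range -0.07 to 0.08 over libraries left out). Between the tumour groups it turned for Nqo1 (-0.19 with equal totals, -0.14 with read totals, -0.17 without Akt/Nras replicate 2, -0.08 without Akt/Nras/Foxo1AAA replicate 3, range -0.17 to 0.28 over libraries left out), Hmox1 (-0.16 and -0.11), and, without Akt/Nras replicate 1, Keap1 (0.02) and Txnrd1 (0.14). Among list genes it turned for Bach1 (0.26 in Akt/Nras, 0.19 in Akt/Nras/Foxo1AAA tumours), Btrc (0.19 and 0.03), Cul3 (0.32 and 0.09) and Hmox2 (0.29 and 0.06), and 59 of 64 named list results kept direction under all 18 alternatives. Scaling was the change in the first 2 settings; the cause of the others was not tested. With the replicate number as a block 0 members were called higher between the tumour groups (Gclm limma adjusted p = 0.0618) and 5 were higher in Akt/Nras/Foxo1AAA tumours than in normal liver. The labels do not say whether the numbers pair the samples. Deviations of same-numbered libraries correlated at -0.17 to 0.112 over 9 pairs and those of other numbers at -0.15 to 0.196 over 24. With so few libraries per group these values cannot settle it. Depth limits Slc7a11 and Nqo1, which rest on at most 258 and 362 reads per library.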
